A study of Eisenia fetida with 6 samples.

Results

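The longest single unigenes of the earthworm intestine were described, beside the change of all other contigs, in worms kept with or without tri-n-butyl phosphate (TnBP). A unigene is taken here to be an assembled transcript sequence that stands alone, with no cluster number in its identifier, which is an interpretation of the identifiers. Members were chosen by identifier form, by a length of at least 5000 bases, by a mean expected count of at least 10 over all 6 libraries and by a mean share of under 0.1% of control counts. Of 47552 unigenes and 55641 contigs in all, 45 met these limits. Of the 48 unigenes that long, 0 fell short of the count limit and 3 lay over the share limit. The rule did not use the difference between the groups, but its share limit was set on control libraries alone.

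RNA came from intestinal tissue of Eisenia fetida, a compost worm common in soil toxicity tests. The 2 groups were adult worms kept in artificial soil for 14 days as a control group and worms exposed there to 10 mg/kg of TnBP, an organophosphate ester used as a plasticizer, solvent and flame retardant. There were 3 libraries per group, made from pools of 3 intestines each. Worms came from a farm and were not labelled with a strain, and the labels do not say whether pools of a group shared a soil container, so the p-values reflect variation among pools of worms only. The libraries held 8435554 to 9643939 expected counts, with lower totals in all 3 control libraries than in all 3 TnBP libraries. The files pair no identifier with a gene name, so the tissue label could not be checked against marker genes and no function is given for any unigene. Identifiers are printed without the species suffix that all of them carry.

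The earthworm intestine is lined by an absorptive and secretory epithelium, wrapped in thin muscle layers and covered by chloragogen tissue, which stores and detoxifies. RNA from all of these enters a whole-tissue library, and in such a library fewer cells of a type and less RNA per cell cannot be told apart. Long messenger RNAs give more sequenced fragments per molecule than short ones. FPKM, a fragment count scaled by sequence length and library size, divides by length, so it is the scale on which unigenes of unlike length can be compared in level, while expected counts carry the precision.

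Per base, the long unigenes ranged from barely detected to abundant, and the typical one stood higher after TnBP. The mean FPKM over the 6 libraries ran from 0.162 to 113 with a median of 9.92. In control libraries 1, 2 and 3 the median FPKM of the 45 was 5.31, 6.85 and 5.47, and in TnBP libraries 1, 2 and 3 it was 11.42, 12.03 and 10.47. All 3 TnBP libraries lay above all 3 control libraries (two-sided exact permutation test, p = 0.1, the smallest that 3 against 3 libraries allow). The 1454 mid-length unigenes, from 2000 to under 5000 bases and within the same limits on level, had a median FPKM of 4.75 ± 0.192 in controls and 9.87 ± 0.318 in TnBP libraries (SD, n = 3). Long unigenes with an FPKM of at least 10 numbered 18, 18 and 18 in controls and 29, 26 and 26 after TnBP. FPKM carries no correction for composition, and on library totals the median of all tested contigs was also higher after TnBP, by 0.79 on the log2 scale.

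Among the 45, whose control level the share limit caps, the unigene of highest FPKM was the same in both groups, but the order behind it differed. Of the 3 long unigenes over that limit, Unigene46102 had 246.86, 257.4 and 250.13 FPKM in controls, above all 45, and Unigene25953 had 146.24, 149.87 and 151.63 after TnBP, again above all 45. Unigene1822, 6064 bases long, had FPKM values of 122.59, 141.88 and 138.3 in controls and 91.7, 91.1 and 93.01 after TnBP. The groups did not overlap, and its TMM-scaled log2 fold change was -1.32 ± 0.08 (edgeR SE and adjusted p = 1.92e-07). Unigene24819 came next in controls, at 96.51, 113.81 and 86.98 FPKM, and stood at 59.31, 64.81 and 67.44 after TnBP. Its TMM-scaled log2 fold change was -1.41 (SE 0.11, edgeR adjusted p = 8.57e-07). Unigene3220 followed at 79.96, 97.88 and 87.87 FPKM in controls, against 48.97, 48.01 and 44.83 after TnBP, and also fell, by 1.68 on TMM-scaled counts (log2, SE 0.09, edgeR adjusted p = 6.62e-08). Unigene5823, with 73.43, 77.75 and 63.57 FPKM in controls and 35.12, 37.59 and 36.57 after TnBP, had a TMM-scaled log2 change of -1.75 ± 0.10 (edgeR SE and adjusted p = 8.43e-08). On library totals the changes of Unigene1822, Unigene24819, Unigene3220 and Unigene5823 were smaller, at -0.54, -0.63, -0.90 and -0.97. Each was called lower there too.

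Unigene4932 did not follow these. Its FPKM was 42.01, 46.12 and 46.05 in controls and 71.17, 71.31 and 64.44 after TnBP, which placed it second among the 45 in the exposed intestine, though below all 3 long unigenes over the share limit. On TMM-scaled counts its log2 fold change was -0.15 ± 0.09 (edgeR SE and adjusted p = 0.171), and on library totals it was 0.63 (edgeR adjusted p = 6.32e-05). Behind it in the TnBP libraries came Unigene24819, then Unigene355 at 62.3 ± 4.12 FPKM and Unigene4080 at 49.2 ± 2.75 FPKM (SD, n = 3). The last pair is named only for this order, after the values were seen. Across the 45 unigenes the control and TnBP mean FPKM had a Spearman correlation of 0.60, and across the 1454 shorter ones of 0.81. These are descriptions across contigs of the same 6 libraries.

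**Figure D1:**
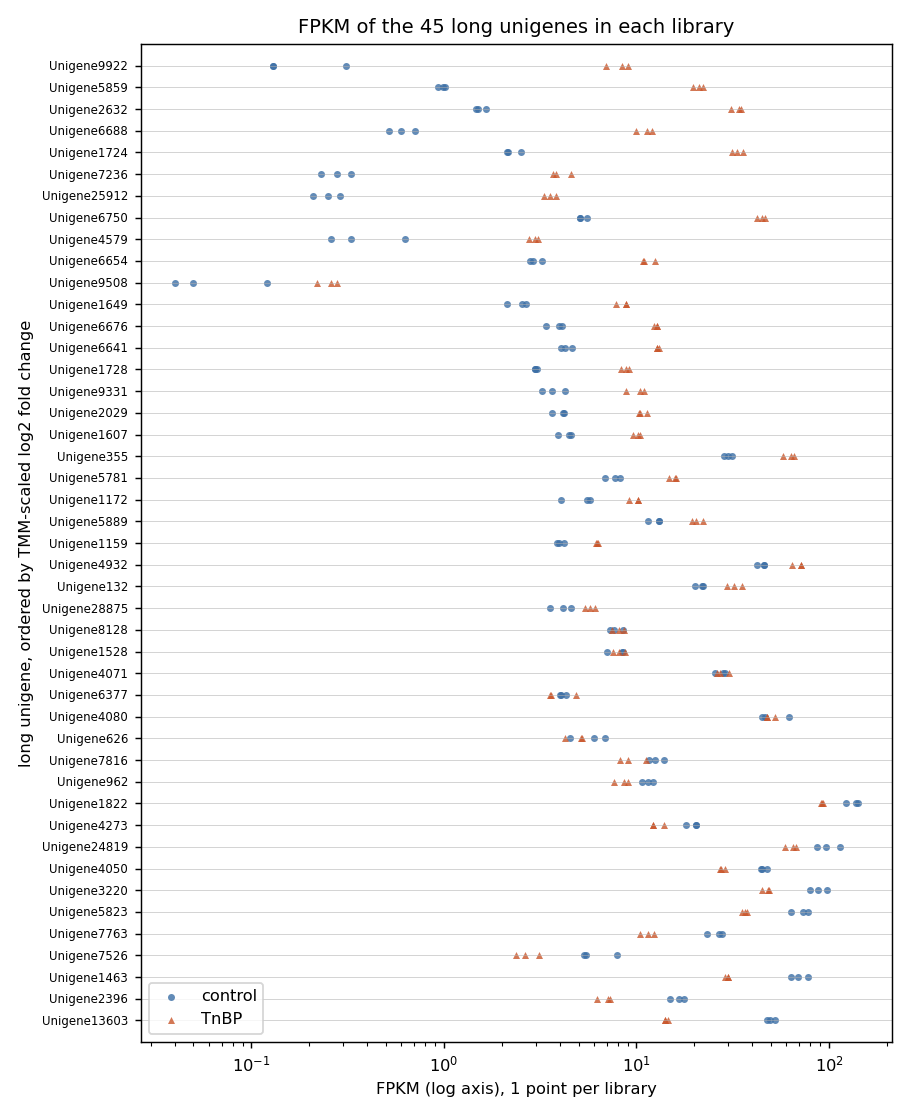
FPKM of each of the 45 long unigenes (log axis) in the 3 control libraries (circles) and the 3 TnBP libraries (triangles), ordered by TMM-scaled log2 fold change from the lowest at the bottom. In the upper rows TnBP points lie to the right of control points, in the lower rows to the left, and control points span 0.04 to 141.88 FPKM.

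Most long unigenes differed between the groups, in almost equal numbers in each direction on TMM-scaled counts. Counts were compared by edgeR's quasi-likelihood test over all 25353 tested contigs after TMM scaling, which sets the median change near 0, and a contig was called at a Benjamini-Hochberg adjusted p under 0.05. All 45 long unigenes passed the count filter and were tested. Of these, 18 were called higher after TnBP, where the background was 24.1% of all tested contigs, and 19 were called lower, where it was 24.5%. Together 37 of 45 were called, or 82.2%, against 48.6% of all tested contigs and 66.0% of the mid-length unigenes. For the 46 cluster contigs of at least 5000 bases, within the same limits on level, the share was 76.1%. Counts and precision moved with this share. The long unigenes had a median mean count of 548 and a median SE of 0.10, all tested contigs 32.2 and 0.29, and the part of precision in the share called was not tested. In TMM-scaled CPM, counts relative to library size, the groups did not overlap for 42 of the 45, where the background was 57.8%.

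Changes of at least 2-fold were called upward for 11 long unigenes, with a background of 16.9%, and downward for 14, with a background of 17%. At least 8-fold higher were 7 of the 45, with a background of 4.12%. Of the 46 cluster contigs of at least 5000 bases, 6 were called at least 8-fold higher. At least 2-fold, 15 of these cluster contigs were called higher and 5 lower. The 18 long unigenes called higher had log2 fold changes from 0.28 to 4.65, and the 19 called lower from -2.58 to -0.72. The median over all 45 was -0.15, against 0.01 over all tested contigs and 0.27 over the mid-length unigenes.

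On library totals the balance shifted upward, as it did for contigs in general. There 26 long unigenes were called higher, with a background of 54.2%, and 13 lower, with a background of 11.2%, and the median log2 fold change was 0.64 against 0.79 over all tested contigs. In either direction 86.7% of the long unigenes were called on totals, against 65.3% of all tested contigs. For mid-length unigenes that share was 87.8%, and for cluster contigs of at least 5000 bases 87.0%, so the excess over these classes was absent on totals. All 18 unigenes called higher on TMM-scaled counts were also called higher on totals. Of the 19 called lower, 13 were also called lower on totals and 6 were not called there, and 0 were called in opposite directions. All 8 that TMM scaling left uncalled were called higher on totals.

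**Figure D2:**
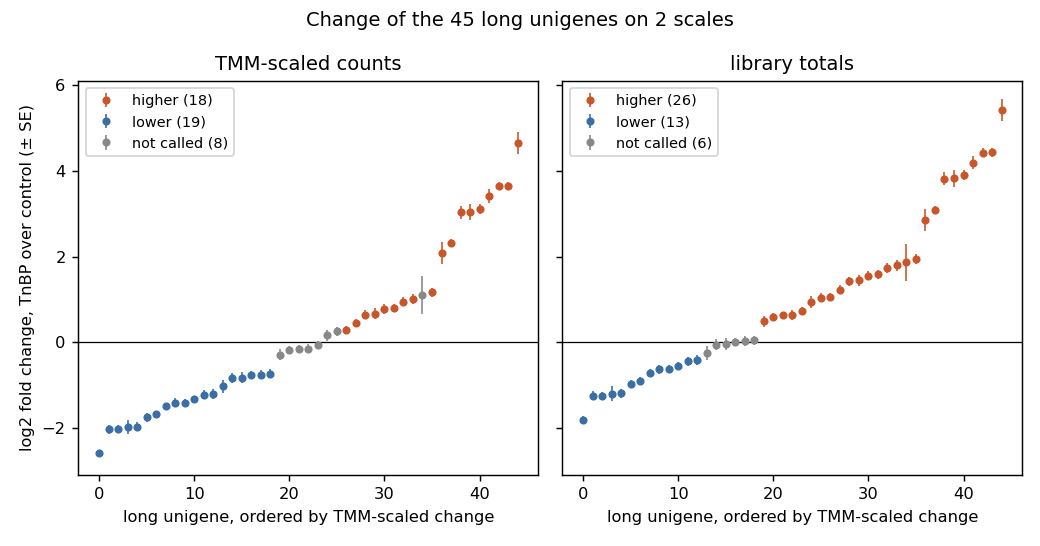
Log2 fold change of the 45 long unigenes, TnBP over control, with standard errors, on TMM-scaled counts (left) and on library totals (right), both ordered by the TMM-scaled change. Colours mark unigenes called higher, lower or not called at an adjusted p under 0.05, numbering 18, 19 and 8 on the left and 26, 13 and 6 on the right.

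Taken as a pool, the 45 long unigenes within the share limit held a share of expected counts that overlapped between the groups. The share of mid-length unigenes did not overlap. The 45 summed to 0.615%, 0.696% and 0.630% of expected counts in controls and to 0.651%, 0.633% and 0.623% after TnBP. The groups overlapped, with TnBP minus control at -0.0115 percentage points (two-sided exact permutation test, p = 0.9). The share limit capped control counts alone, here and in the mid-length class. The test therefore cannot show how all unigenes of this length moved together. The 3 long unigenes over the limit summed to 0.447%, 0.478% and 0.460% in control libraries 1, 2 and 3. In TnBP libraries 1, 2 and 3 their sum was lower without overlap, at 0.264%, 0.274% and 0.265%, though Unigene25953 alone was higher on library totals. The overlap is thus a property of the 45 and does not extend to all 48. The overlap of the 45 also rests on the total used. With the 10 most abundant contigs left out of the total, the share was 1.14% ± 0.0552 in controls and 0.901% ± 0.0148 after TnBP, a difference of -0.235 points without overlap (SD, n = 3, exact permutation test, p = 0.1). The mid-length unigenes summed to 5.16% ± 0.176 and 9.53% ± 0.0686 (SD, n = 3; exact permutation p = 0.1, the lowest attainable). The 46 cluster contigs of at least 5000 bases that met the same limits on level summed to 0.320% ± 0.0124 and 0.397% ± 0.0102, also without overlap (exact permutation test, p = 0.1).

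Within the pool, members called lower held most of the control counts. The 19 called lower held 0.545% ± 0.0410 of control counts and 0.319% ± 0.00196 of TnBP counts, and the 18 called higher 0.0430% ± 0.00123 and 0.222% ± 0.00794 (SD, n = 3). Both sets were chosen on the change, so the shares are a description of that choice. The 5 long unigenes with most counts, Unigene1822, Unigene24819, Unigene3220, Unigene1463 and Unigene13603, made up 49.6% ± 0.633 of the pool's counts in controls and 26.6% ± 0.838 after TnBP.

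**Figure D3:**
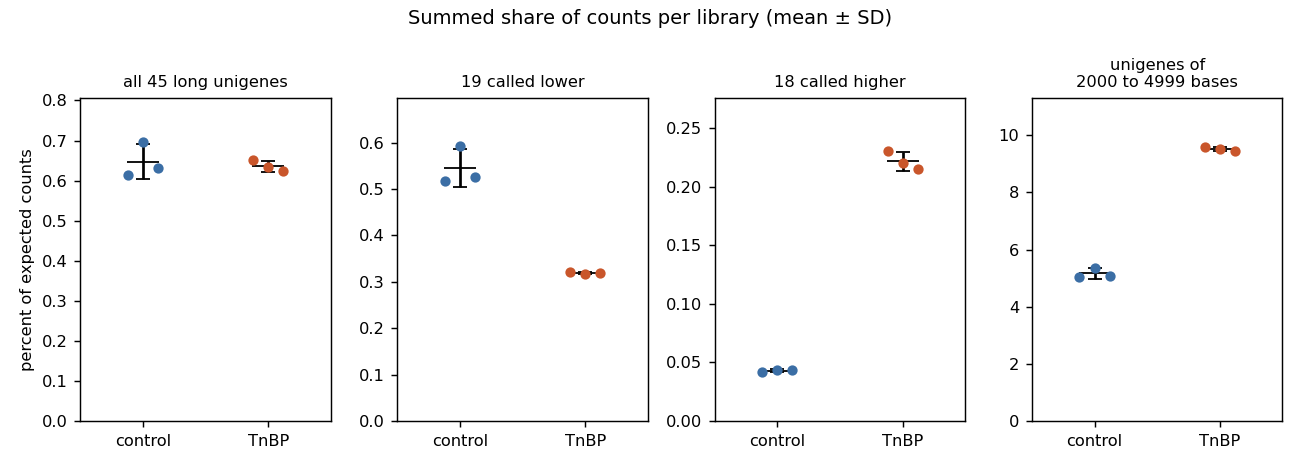
Percent of each library's expected counts summed over all 45 long unigenes, the 19 called lower, the 18 called higher and the mid-length unigenes, with 1 point per library and the mean ± SD of each group (n = 3); the vertical axes start at 0 and differ in scale. The 45 together sit between 0.615% and 0.696% in all libraries, while the shorter class lies near 5.16% in controls and 9.53% after TnBP.

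The steepest fall was that of Unigene13603, 11887 bases long. Its FPKM was 47.72, 52.43 and 49.24 in controls and 14.0, 14.52 and 14.09 after TnBP, and its log2 fold change was -2.58 ± 0.08 (edgeR SE and adjusted p = 3.87e-09). The values within each group lay close together, far from those of the other group.

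Unigene2396, 8025 bases long, stood at 16.69, 17.59 and 14.92 FPKM in controls and at 7.29, 7.15 and 6.23 after TnBP, a log2 change of -2.03 ± 0.10 (edgeR SE and adjusted p = 5.00e-08). Unigene1463, 7649 bases long, went from 68.79, 77.54 and 63.39 FPKM to 29.81, 28.92 and 29.7, with a log2 change of -2.02 ± 0.09 (edgeR SE and adjusted p = 1.69e-08). These 2 fell by nearly the same amount at very unlike levels. Unigene7526, only 5142 bases long, had 5.31, 7.92 and 5.47 FPKM in controls and 3.1, 2.38 and 2.63 after TnBP, a log2 change of -1.98 ± 0.16 (edgeR SE and adjusted p = 1.56e-06). Its second control library was the highest, and the groups still did not overlap, which was a condition for naming the steepest changes. On library totals the falls of these 4 were -1.81, -1.25, -1.24 and -1.20, in the order given, and each was called there too.

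The steepest rises began from low control levels. Unigene9922, 5843 bases long, had 16, 7 and 7 expected counts in controls and 486, 524 and 397 after TnBP, or 0.31, 0.13 and 0.13 FPKM against 8.37, 9.08 and 6.95. Its log2 fold change was 4.65 ± 0.27 (edgeR SE and adjusted p = 1.02e-07), and its size rests on few control reads, being 5.19 without control replicate 1. Unigene6688, 5172 bases long, rose from 0.71, 0.6 and 0.52 FPKM to 11.37, 12.03 and 9.91, a log2 change of 3.41 ± 0.16 (edgeR SE and adjusted p = 2.89e-08). Unigene1724, 6180 bases long, rose from 2.12, 2.14 and 2.51 FPKM to 35.74, 33.36 and 31.43, a log2 change of 3.11 ± 0.11 (edgeR SE and adjusted p = 4.98e-09). That took it from a low level to one above the median of the long unigenes in every TnBP library.

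Of the long unigenes, 6 had under 1 FPKM in every control library, and 1 of these also had under 1 FPKM in every TnBP library. That one, Unigene9508, was the scarcest of the 45. It had 2, 7 and 3 expected counts in controls and 18, 14 and 16 after TnBP, and was not called (log2 fold change 1.10 ± 0.44 SE, edgeR adjusted p = 0.0581), although TnBP lay above control in all libraries. It was called without control replicate 2, at 1.70 (edgeR adjusted p = 0.0264). Unigene7236, 6056 bases long, was listed at 0.28, 0.23 and 0.33 FPKM in controls and at 4.55, 3.83 and 3.68 after TnBP, a log2 change of 3.04 ± 0.20 (edgeR SE and adjusted p = 2.54e-07). Unigene4579 went from 0.33, 0.63 and 0.26 FPKM to 2.78, 2.97 and 3.08, with a log2 change of 2.08 ± 0.25 (edgeR SE and adjusted p = 4.14e-05). All 45 had at least 1 expected count in every library, where the rule had asked for a mean of at least 10.

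The 6 longest unigenes split evenly. After 8025 bases the next member had 11697, and the 6 beyond that gap reached up to 15542 bases. The gap is one among members, as Unigene25953 and Unigene46102, left out by the share limit, had 8174 and 9698 bases. The longest, Unigene25912, had 0.29, 0.21 and 0.25 FPKM in controls and 3.81, 3.56 and 3.3 after TnBP, and rose with a log2 change of 3.03 ± 0.15 (edgeR SE and adjusted p = 3.95e-08). Unigene5859, 12583 bases long, rose from 1.01, 0.93 and 0.99 FPKM to 22.23, 19.76 and 21.07, and Unigene2632, 12255 bases long, from 1.51, 1.47 and 1.66 FPKM to 34.73, 31.05 and 33.91. Their log2 fold changes were 3.65 ± 0.10 and 3.64 ± 0.10 (SE), each at an edgeR adjusted p of 2.04e-09.

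The other 3 of the 6 fell. Beside Unigene13603, these were Unigene4273, 11700 bases long, and Unigene7763, 11697 bases long. Unigene4273 stood at 18.14, 20.33 and 20.48 FPKM in controls and 13.9, 12.2 and 12.12 after TnBP, with a log2 change of -1.40 ± 0.09 (edgeR SE and adjusted p = 2.27e-07). For Unigene7763 the values were 23.29, 26.93 and 27.7 FPKM in controls and 11.42, 12.3 and 10.38 after TnBP, with a log2 change of -1.97 ± 0.10 (edgeR SE and adjusted p = 6.01e-08). In all 6 the groups did not overlap, and each kept its direction and call on library totals. There the changes of Unigene4273 and Unigene7763 were -0.62 and -1.19.

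Both directions occurred in every length band of the long unigenes, beside 24.1% of all tested contigs called higher and 24.5% called lower. Of the 9 members of at least 7000 bases, 3 were called higher and 6 lower, and their median log2 change was -1.40. Unigene25953 and Unigene46102, also that long but over the share limit, changed by -0.52 and -2.17 on TMM-scaled counts. On library totals they changed by 0.26 and -1.39. Of the 14 members from 6000 to under 7000 bases, 5 were called higher and 6 lower, with a median of -0.10, and of the 22 members under 6000 bases, 10 and 7, with a median of 0.21. Across the 45, length and log2 fold change had a Spearman correlation of -0.12, and across the 1454 mid-length unigenes of 0.01.

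Medians of shorter classes climbed with length, and that of the long unigenes lay below the mid-length class. The median TMM-scaled log2 fold change was -0.35 for unigenes under 500 bases, -0.01 from 500 to under 1000, 0.19 from there to under 2000 and 0.27 for mid-length unigenes, and then -0.15 for the 45. On library totals the medians in the same order were 0.43, 0.77, 0.97, 1.05 and 0.64. The 46 cluster contigs of at least 5000 bases had a median of 0.55 on TMM-scaled counts, with 26 called higher and 9 lower, beside 24.1% and 24.5% of all tested contigs.

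Whether the median level of the long unigenes moved differently from that of shorter ones was tested within libraries, where no scaling factor enters. The share limit capped control counts alone in every class, so the test covers only unigenes within it. A gap between class medians is also not the median of single changes, which was -0.15 for the 45 and 0.27 for mid-length unigenes on TMM-scaled counts. The median log2 CPM of the 45 exceeded that of the mid-length unigenes by 1.32, 1.47 and 1.16 in controls and by 1.46, 1.41 and 1.39 after TnBP. The groups overlapped, and the difference was 0.10 (two-sided exact permutation test, p = 0.4). Over unigenes from 1000 to under 2000 bases the excess was 2.72 ± 0.167 in controls and 2.94 ± 0.0294 after TnBP. Over those under 500 bases it was 4.24 ± 0.169 and 5.06 ± 0.0864. Neither overlapped between groups (SD, n = 3, exact permutation test for each, p = 0.1). Over the unigenes from 500 to under 1000 bases the excess was 3.85 ± 0.165 in controls, against 4.30 ± 0.0626 after TnBP (SD, n = 3; exact permutation p = 0.1, the lowest attainable). On log2(FPKM + 0.1) that excess was 0.867 ± 0.168 and 1.07 ± 0.131, and the groups overlapped (SD, n = 3, exact permutation test, p = 0.3). On that scale the groups also overlapped for the class from 1000 to under 2000 bases (exact permutation test, p = 0.7). With means in place of medians, the difference against the mid-length unigenes was -0.20 (exact permutation test, p = 0.1), of opposite sign, so the direction depends on the summary used. In all, 33 such exact tests were made, and adjusted for that number (Benjamini-Hochberg) a p of 0.1 became 0.127.

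**Figure D4:**
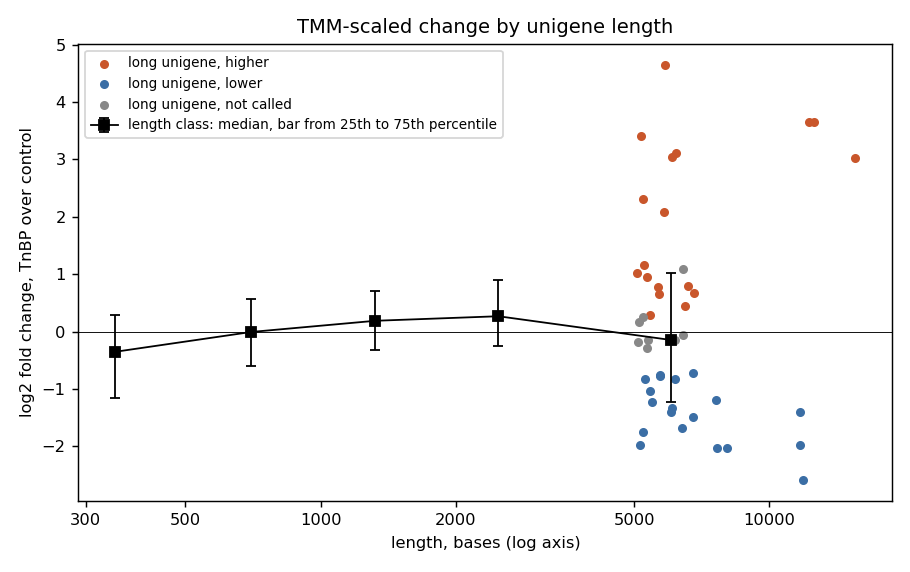
TMM-scaled log2 fold change (TnBP over control) against length in bases (log axis): squares give the median of each unigene length class with bars from the lower to the upper quartile, and points are the 45 long unigenes by call. Class medians climb from -0.35 to 0.27 and the long unigenes, with a median of -0.15, spread from -2.58 to 4.65.

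More of the abundant long unigenes were called lower, and more of the scarce ones higher, beside 24.1% of all tested contigs called higher and 24.5% lower. Of the 15 with the highest mean FPKM, 17.9 to 113, 3 were called higher and 10 lower, and their median log2 change was -1.32. For the middle 15 the numbers were 6 and 6 with a median of 0.17, and for the 15 with the lowest mean FPKM, 0.162 to 7.19, they were 9 and 3 with a median of 0.78. On library totals, with 54.2% of all tested contigs called higher and 11.2% lower, the numbers were 5 and 8 for the top 15, 9 and 4 for the middle and 12 and 1 for the lowest. In library totals the top 15 held 0.533% ± 0.0387 of control counts and 0.410% ± 0.00687 of TnBP counts, and the lowest 15 held 0.0231% ± 0.00199 and 0.0572% ± 0.00259 (SD, n = 3, exact permutation test for each, p = 0.1). The Spearman correlation of mean FPKM and log2 fold change was -0.49 over the 45 and -0.28 over the 1454 mid-length unigenes. Level and change come from the same counts, which also set the sets of 15. These correlations, and the tests on the shares of those sets, are therefore descriptions.

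Levels of the long unigenes also lay closer together after TnBP. The SD of log2 CPM over the 45 was 2.57, 2.59 and 2.62 in control libraries and 1.58, 1.64 and 1.62 in TnBP libraries. Over the mid-length unigenes it was 2.11 ± 0.0193 in controls, against 1.61 ± 0.0259 after TnBP (SD, n = 3). The long unigenes were thus more widely spread than the shorter ones by 0.49 ± 0.046 in controls and by 0.00 ± 0.012 after TnBP, with no overlap between groups (two-sided exact permutation test, p = 0.1, the lowest attainable). The mean FPKM of single members ran from 0.0700 to 134 in controls and from 0.253 to 91.9 after TnBP. The limit on control share left out the 3 unigenes of this length with the largest shares, and their part in the control spread was not tested. That limit acts on control levels alone, in both classes. The limit on mean count left out 0 long unigenes, and its part in the spread of the mid-length class was not tested. The test on the spreads is therefore a description of the classes as chosen.

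**Figure D5:**
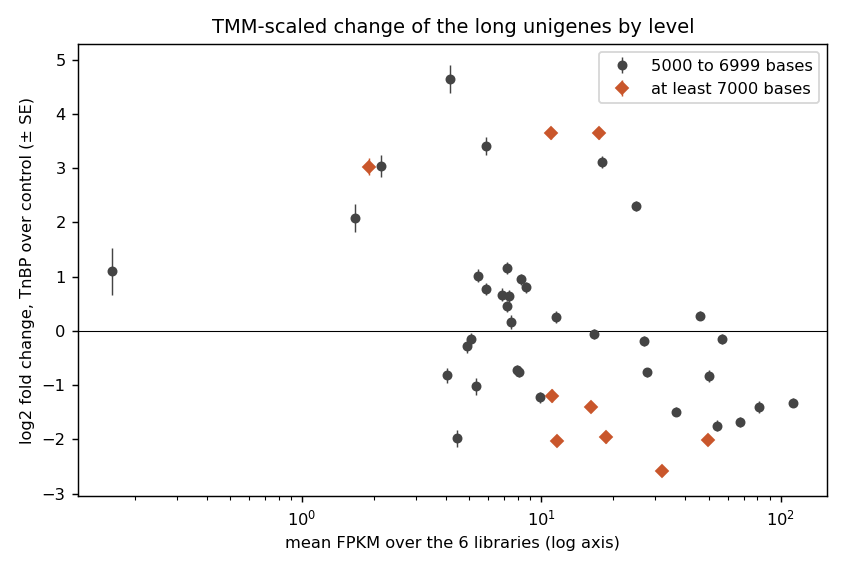
TMM-scaled log2 fold change (TnBP over control, with SE) of the 45 long unigenes against mean FPKM over the 6 libraries (log axis), with diamonds for the 9 of at least 7000 bases. The 5 points of highest level lie below 0, among them Unigene4932, which lies above 0 on library totals, and the 5 highest changes lie between 4.16 and 17.9 FPKM.

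For part of the long unigenes the call, or the sign of the change, rested on the scaling. On library totals, 6 called lower on TMM-scaled counts were not called, and the 8 not called were called higher. Unigene4071, Unigene1528 and Unigene8128, called lower at -0.77, -0.75 and -0.72 on TMM-scaled counts, stood at 0.02, 0.03 and 0.05 on library totals. Among members with a mean count of at least 100, the smallest changes were those of Unigene5889 at -0.06 ± 0.09, Unigene1159 at -0.15 ± 0.11 and Unigene4932 at -0.15 ± 0.09 (log2, SE, edgeR adjusted p = 0.653, 0.299 and 0.171). Unigene5889 had 11.49, 13.02 and 13.03 FPKM in controls and 22.05, 20.48 and 19.34 after TnBP. For Unigene1159 the values were 4.21, 3.96 and 3.86 against 6.29, 6.2 and 6.16. In FPKM all 3 were higher in every TnBP library than in any control library, and on library totals all 3 were called higher, with log2 fold changes of 0.73, 0.64 and 0.63. In TMM-scaled CPM, by contrast, every TnBP library lay below every control library for Unigene1159 and Unigene4932. With the length trend removed all 3 were called lower, at -0.30, -0.42 and -0.41 (edgeR adjusted p = 0.0163, 0.00775 and 0.00201).

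Pools of worms within a group gave similar values for most long unigenes. Over the 43 members with a mean count of at least 100, the median coefficient of variation (CV) of TMM-scaled CPM was 7.73% in controls and 6.21% after TnBP, against 5.84% and 3.75% expected from counting alone. For 27 of the 43 it was under 10% in both groups. Largest among them was the CV of Unigene9922 in controls, 58.9%, where a single pool had 16 counts and the others 7 each. Next came Unigene7526, at 20.6% in controls, and Unigene7236, at 19.8% in controls with 15, 13 and 19 counts. The 1059 mid-length unigenes with such counts had median CVs of 9.36% and 6.52%, at a counting error of 7.39% and 5.27%.

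Beside the limits of the rule, values were as follows, given as a description. Just inside the length limit were Unigene1649 with 5075 bases, which rose with a log2 fold change of 1.02, and Unigene132 with 5099 bases, at -0.19 and not called (edgeR adjusted p = 0.131). Just outside were Unigene4929 with 4991 bases and Unigene44829 with 4975, at 3.08 and -1.29. The lowest mean counts inside were 10.0 for Unigene9508 and 95.5 for Unigene4579, and no unigene of at least 5000 bases lay below the count limit. The highest control shares inside were 0.0841% for Unigene1822 and 0.0618% for Unigene24819. Outside lay Unigene4058 at 0.103%, with a log2 fold change of -1.93, Unigene25953 at 0.106%, with -0.52 on TMM-scaled counts and 0.26 on library totals, and Unigene46102 at 0.253%, with -2.17. With these 3 added, the long unigenes numbered 48, of which 18 were called higher and 22 lower, beside 24.1% and 24.5% of all tested contigs.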

How the data were processed

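Each of 6 libraries has 1 deposited table of contigs with length in bases, expected count and FPKM, per the file headers. Expected counts as deposited are unscaled and partly fractional. FPKM as deposited includes the authors' scaling for length and depth, per the header names. The submitters' processing notes list RSEM, Bowtie 0.12.2 and the mouse build mm8 with no role or setting, whereas every identifier carries an Eisenia fetida suffix. For assembler, read filters and strand the answer is not given in the sources used here. Dividing counts by FPKM and the library total gave a length of 103.0% to 103.4% of the listed one for 22 long unigenes and of 92.1% to 92.4% for 1719 unigenes under 500 bases, which are those with an FPKM of at least 5 in every library (library medians); for the others this was not computed. Contigs missing from a table were set to 0.

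Expected counts were rounded and analysed in R 4.3.3 with edgeR 4.0.16 (filterByExpr with a minimum count of 10, TMM, quasi-likelihood test, Benjamini-Hochberg over all tested contigs, threshold 0.05). Log2 fold changes are TnBP over control, with standard errors from the change and its F statistic. Log2 CPM per library was computed with 0.5 counts added. Single values per library went into exact two-sided permutation tests (SciPy 1.17.1). RSEM can divide reads between similar contigs, so the counts of the 19 long unigenes that are not whole are less certain. The code was tested on simulated data.

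Members, tests and classes were chosen with earlier results of these data known. Named unigenes follow a rule: the 5 longest, the 5 highest in mean FPKM, the 5 steepest called changes each way without overlap and with a count in every library, the 3 smallest changes and the 3 largest CVs at a mean count of at least 100, and those beside the limits. Alternatives were DESeq2 1.42.0, its size factors, other filters, limma 3.58.1 on log2 FPKM, library totals, removal of the length trend (loess per library), a replicate block, each library left out, and other limits for members.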

Additional observations from a re-analysis of the deposited data

How the results depend on the processing

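Calls of long unigenes held in most alternatives. Of 37 called, DESeq2, its size factors within edgeR, no count filter and a filter at 5 CPM kept all 37 in the same direction, leaving out any 1 library kept 36 or 37, removal of the length trend 35, library totals 31 and the FPKM fits 30, with 0 reversed calls in each. The median log2 fold change of the 45, -0.15 on TMM-scaled counts, changed sign to 0.64 on library totals and to 0.59, 0.62 and 0.57 in limma fits with 1 added to FPKM, with 0.1 added, and with 1 added and no filter, none of which carries a TMM factor; these 3 fits each called 12 lower. With the length trend removed the median was -0.41. A limit of 4000 bases gave 117 members, 53 called higher and 44 lower, with a median of 0.26, and one of 7000 bases gave 9, with 3, 6 and -1.40, by the choice of members. The background for both limits was 24.1% called higher and 24.5% lower. Leaving out 1 library gave 17 to 18 higher, 19 to 20 lower and medians of -0.18 to -0.11.

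The difference in summed share, -0.0115 points, was 0.00836 as a percent of summed FPKM and 0.0942 at 4000 bases, -0.235 with the 10 most abundant contigs left out of the total, -0.0774 with unigenes alone as the total, -0.0411 at 7000 bases, and -0.0277 to 0.0131 with 1 library left out, so its size and sign rest on the total and the members taken. The gap to mid-length unigenes, 0.10, was -0.10 in log2(FPKM + 0.1), -0.20 with means and -0.88 at 7000 bases. Long unigenes detected differed by 0 at 1 count, by 1.67 at 10 counts and by 3.67 at an FPKM of 0.5. The cause was not tested. Of 24 named members under 16 alternatives, 357 of 381 values kept direction and side of the threshold, 0 lost a call and 7 gained one. The other 17 changed sign, all in 4 members not called on TMM-scaled counts. On library totals and in the 3 FPKM fits, in the order above, these were 0.63, 0.61, 0.62 and 0.61 for Unigene4932, 0.73, 0.68, 0.72 and 0.68 for Unigene5889 (also 0.030 without a count filter), 0.64, 0.53, 0.62 and 0.53 for Unigene1159, and 0.60, 0.57, 0.59 and 0.57 for Unigene132.

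Same-numbered libraries had deviations correlated at -0.003, 0.045 and -0.016, and 2 of 6 libraries correlated best with their own number, so numbers were not taken to pair libraries; with the replicate block 17 long unigenes were called higher and 19 lower, with a median of -0.14, and 11253 contigs in all against 12321. Depth limits the scarcest member, with 2 to 18 counts per library.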

Other observations

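Unigene2632 and Unigene5859, 2 of the 3 longest members, had almost the same fold change, and their FPKM ratio was compared after the values were seen. It was 1.495, 1.58 and 1.68 in control libraries and 1.56, 1.57 and 1.61 in TnBP libraries. The range of the TnBP ratios lay within that of the controls, while the mean FPKM of each member was 21.5 times higher after TnBP. All counts of both are whole numbers. The files hold nothing that would show whether the 2 sequences belong to 1 transcript.

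Whole counts in all 6 libraries were found for 26 of the 45 long unigenes (57.8%), for 69.1% of mid-length unigenes, for 81.2% of those under 500 bases and for 3 of the 46 cluster contigs of at least 5000 bases. Of the 26, 11 were called higher and 10 lower, and of the other 19, 7 and 9, beside 24.1% and 24.5% of all tested contigs. The 26 summed to 0.353% ± 0.0273 in controls and 0.402% ± 0.00947 after TnBP (percent of counts, SD, n = 3), and the other 19 to 0.294% ± 0.0161 and 0.233% ± 0.00471, each without overlap between groups (two-sided exact permutation test, p = 0.1, the smallest possible).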
